A study of Mus musculus with 2 samples.

Results

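The genes described here encode the proteasome, the protease that degrades ubiquitin-tagged proteins, together with its activators, assembly factors and inhibitor. They were taken from the gene list of the deposited matrices as every symbol that matched in full the names Psma, Psmb, Psmc, Psmd, Psme, Psmf or Psmg followed by digits, which gave 48 of 32285 genes. The values come from Visium spatial transcriptomics of 2 coronal brain sections with bilateral dorsal hippocampus, each 10 µm thick and each from a different mouse (n = 1 section per group). Both mice were males of 3 to 4 months with the genotype ArcCreERT2::eYFPflx on a C57BL/6 background, a line in which an inducible Cre is driven by the Arc promoter and switches on a floxed eYFP reporter. The mouse labelled trained had learned active place avoidance on a rotating arena with an active shock zone, and the mouse labelled untrained had explored that arena with the shock off. A retention test was given 24 h after training, and tissue was taken 60 min after the test. With 1 mouse, 1 section and 1 library on each side, differences between the groups have no replicate check and were not tested. It is not settled that the deposited labels and the study's text name the same mouse as trained, so directions follow the deposited labels.

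A proteasome is built from a barrel-shaped core particle and a regulatory particle that caps it. The core particle stacks rings of alpha subunits, which form the gate, on rings of beta subunits, some of which carry the proteolytic sites. The regulatory particle recognises ubiquitin chains, removes them and unfolds the substrate with a ring of ATPases, and alternative catalytic beta subunits and an activator cap are known to be induced by interferon. In neurons the proteasome turns over synaptic proteins and is needed for lasting synaptic plasticity.

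The members were sorted by their known roles into 7 core alpha subunits, 7 core beta subunits, 5 alternative or tissue-restricted core subunits, 6 regulatory ATPases, 11 regulatory non-ATPase subunits, 4 activators and 8 assembly factors or inhibitors. The section labelled trained held 4152 spots, the small capture areas of the slide that each cover several cells, with 29515831 unique molecular identifiers (UMIs, counted transcripts), and its counterpart labelled untrained had 59029131 UMIs in 3738 spots. Median UMIs per spot were 5950.5 and 13766.5, so the first library was 2.31 times shallower. The sections shared 3448 spot barcodes, as slides of 1 design do. Mitochondrially encoded genes took 12.3% and 16.2% of UMIs. Spots were clustered by expression over both sections, and 14 regions were named from marker genes, with 4 clusters left unnamed. The 5 CA1 markers summed to 1290 and 1209 UMIs per 1000000 (CPM) in the CA1 region, against 204 and 202 CPM over the whole sections. The sections did not hold the same tissue. Choroid plexus covered 50 and 112 spots and its markers summed to 5768 and 19395 CPM, while the striatal region covered 217 and 28 spots and its markers summed to 514 and 187 CPM. Pairs of values below give the section labelled trained first. Intervals are 95% intervals of counting error only, and reads of 1 molecule are counted once. In sums over spots, fewer cells of a type and less RNA per cell cannot be told apart.

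The promoter windows of 3 members that recur below are printed for their position and letters, from 250 bases before to 50 bases after the RefSeq start of transcription, 5′ to 3′ on the strand of the gene, in build GRCm38.p6. They belong to Psmb5, the standard chymotrypsin-like catalytic subunit, to Psmb8, its interferon-induced replacement, and to Psme1, a subunit of an activator cap. Capitals mark a match to the antioxidant response core TGACNNNGC in Psmb5 (chr14:54617946-54618245, minus strand) and a match to the interferon-stimulated element (GAAA, 2 bases of any kind, GAAA), read on the opposite strand, in Psme1 (chr14:55578244-55578543, plus strand). Psmb8 (chr17:34197945-34198244, plus strand) held none of the 4 motifs searched.
Psmb5: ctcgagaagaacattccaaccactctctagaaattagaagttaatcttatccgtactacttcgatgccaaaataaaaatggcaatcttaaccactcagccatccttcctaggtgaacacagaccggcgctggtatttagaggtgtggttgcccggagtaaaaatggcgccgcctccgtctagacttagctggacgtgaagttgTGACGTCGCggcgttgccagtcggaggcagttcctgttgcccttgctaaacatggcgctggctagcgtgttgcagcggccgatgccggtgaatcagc
Psmb8: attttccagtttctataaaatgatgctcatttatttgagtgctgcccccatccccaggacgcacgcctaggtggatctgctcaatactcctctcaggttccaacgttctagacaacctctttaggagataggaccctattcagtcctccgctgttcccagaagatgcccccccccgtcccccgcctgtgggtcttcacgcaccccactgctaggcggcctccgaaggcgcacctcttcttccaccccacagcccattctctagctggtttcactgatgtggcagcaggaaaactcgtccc
Psme1: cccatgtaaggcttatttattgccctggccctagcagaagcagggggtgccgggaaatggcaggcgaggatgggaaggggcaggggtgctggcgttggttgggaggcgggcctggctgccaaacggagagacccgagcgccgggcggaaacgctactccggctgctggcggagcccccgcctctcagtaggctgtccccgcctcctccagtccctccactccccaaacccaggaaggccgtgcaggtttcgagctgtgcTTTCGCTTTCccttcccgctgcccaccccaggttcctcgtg

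Each motif was searched on both strands in the windows of 40 members and of 27025 genes in all. TGACNNNGC, the core bound by the proteasome transcription factor Nfe2l1 and its relatives, was found in 6 of 40 members (15%) and in 14% of all genes. The 6 were Psmb5, Psmb6, Psmc6, Psmd12, Psmd9 and Psme4, of which 3 had ratios between the sections above 0 and 3 below. The interferon-stimulated element was found in 5 of 40 members (12.5%) and in 3.99% of all genes. The 5 were Psmb3, Psmd4, Psmd9, Psme1 and Psmg4, of which 4 had ratios below 0. Beside this, 20 of 45 members and 41.5% of the 11460 genes with at least 400 UMIs over both sections had ratios below 0. Psmg4 was at −0.015, and at 0.12 after removal of a trend with GC content that is described below. GGGCGG, the GC box, was found in 23 of 40 members (57.5%) and in 38.2% of all genes, and CCAAT in 14 of 40 (35.0%) and 41.1%. A match describes letters and not a bound site, and the absence of one says only that these letters are not in the window.

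All members together took 150638 and 289490 UMIs, or 5104 CPM (5078 to 5129) and 4904 CPM (4886 to 4922). The core particle, summed over its 14 standard subunits, reached 2714 and 2624 CPM, and the regulatory particle, summed over 17 subunits, reached 1847 and 1752 CPM. Assembly factors summed to 250 and 244 CPM, activators to 175 and 182 CPM and the 5 alternative core subunits to 117 and 102 CPM. Standard core subunits thus gave most of the members' UMIs in both sections. Levels of different genes are given per kb, after division by the length of the longest annotated transcript. Since each captured transcript is counted once whatever its length, an order per kb is not an order of transcript numbers, and the order in undivided CPM is given beside it where the ends of a group differ. On that scale the median member reached 106 and 99.2 CPM per kb among alpha subunits and 127 and 158 CPM per kb among beta subunits. The medians were 62.5 and 67.9 for ATPases, 39.7 and 41.2 for non-ATPase subunits, 22.5 and 28.5 for activators and 13.0 and 11.2 for assembly factors, all in CPM per kb. The alternative core had 42.9 and 37.4 CPM per kb over 2 genes, above the non-ATPase subunits in the first section and below them in the second, while the other 6 groups stood in the same order in both. In undivided CPM its median of 57.1 and 49.9 lay below that of the non-ATPase subunits, 96.9 and 85.3, in both sections. Psmb5 was the highest member on that scale, with 298 and 302 CPM per kb, while in undivided CPM the highest members were Psma2, with 285 in the section labelled trained, and Psmb1, with 288 in the section labelled untrained. The lengths are those of the annotation, and the transcripts present in this tissue may be shorter.

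**Figure D1:**
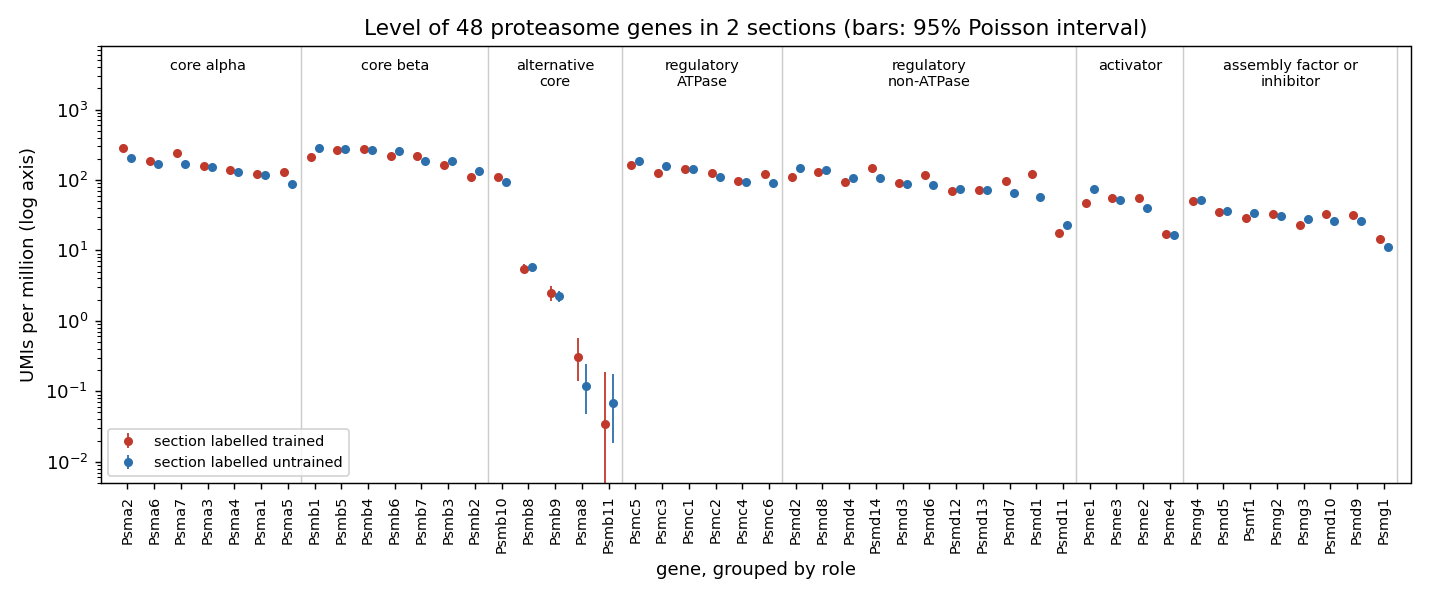
Level of each of the 48 genes in CPM on a log axis, grouped by role, with 1 point per section and bars for the 95% Poisson interval. Standard core subunits lie between 87.2 and 288 CPM, a range that also holds many regulatory subunits, while Psma8, Psmb9 and Psmb11 lie at 2.47 CPM or below.

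Of the 48 members, 45 reached 400 UMIs over both sections and entered the counts below. The other 3 are known for restricted or induced expression. Psma8, the testis alpha subunit, had 9 and 7 UMIs, Psmb11, the thymus beta subunit, had 1 and 4 UMIs, and Psmb9, an interferon-induced beta subunit, had 73 and 132 UMIs (2.47 and 2.24 CPM).

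Over the subunits with Psm names, the ratio of core to regulatory particle differed little between the sections. The regulatory sum of 17 genes leaves out Sem1 and Adrm1, regulatory subunits with other names. Sem1 had 358 and 207 CPM (log2 ratio 0.79), above each of the 17 in both sections. Adrm1 had 58.2 and 48.7 CPM (log2 ratio 0.26). The ratio with these genes added was not computed. Summed core UMIs were 1.47 times the summed regulatory UMIs in the section labelled trained and 1.498 times in the section labelled untrained, log2 ratios of 0.56 (0.54 to 0.57) and 0.58 (0.57 to 0.59). In the hippocampal regions the ratios were 1.54 and 1.55. The mean subunit had 194 and 187 CPM in the core and 109 and 103 CPM in the regulatory particle. Per kb of transcript the log2 ratio was larger, 1.06 and 1.12. Over the 14 named regions the plain ratio of core to regulatory UMIs ranged from 1.30 in habenula to 1.67 in choroid plexus in the first section, and from 1.40 in deep neocortex to 1.74 in meninges in the second, so the core had more UMIs in every region and the extremes were not the same regions.

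Between the whole sections, the summed level of all members differed by a log2 ratio of 0.058 (0.049 to 0.066), labelled trained over labelled untrained. The median over the 45 members was 0.035, with 25 above 0 and 20 below, beside a median of 0.074 over all 11460 genes with at least 400 UMIs, of which 41.5% lay below 0. The summed ratio took the other sign without mitochondrially encoded genes in the total (−0.0067) and with median-of-ratios scaling (−0.016). In the hippocampal regions the summed ratio was 0.074 (0.053 to 0.096), at 5359 and 5089 CPM, and the median over 40 members was 0.043, beside 0.066 over 5836 genes. That summed ratio also took the other sign, at −0.00057 without mitochondrially encoded genes in the total and at −0.038 with equal weight for each spot. Members past 1.5-fold higher under the label trained were 2 of 45, Psmd1 and Psma5 (8.06% of all genes), and 1 of 45 was past 1.5-fold lower, Psme1 (4.75% of all genes). After removal of the trend with GC content, described below, Psme1 was at −0.50 and short of that fold, and Psmd11 was past it. On the higher side, Psmd1 (1.07), Psma7 (0.69), Psma5 (0.60) and Psmd7 (0.60) were then past that fold (6.84% of all genes). Psma5 was short of that fold under several other settings, with 0.51 under median-of-ratios scaling and 0.37 with equal weight for each spot. In the hippocampus 2 of 40 members were past that fold higher, Psmd1 and Psma5 (7.90% of all genes), and 0 of 40 lower (3.86% of all genes).

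**Figure D2:**
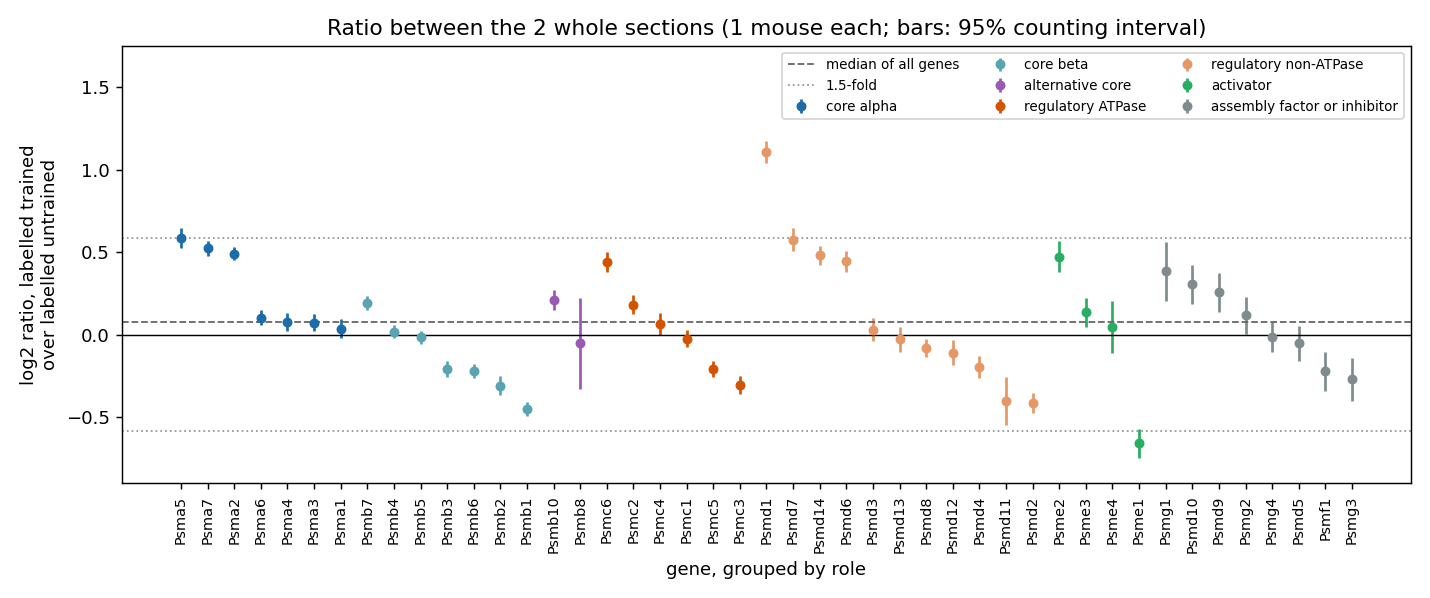
Log2 ratio of CPM between the whole sections, labelled trained over labelled untrained, for the 45 members with at least 400 UMIs, grouped by role, with bars for the 95% counting interval, dotted lines at 1.5-fold and a dashed line at the median of all genes. Psmd1 at 1.11 stands highest and Psme1 at −0.66 lowest, all 7 alpha subunits lie above 0 (4 to 7 over the settings tried), and 5 of 7 beta subunits lie below 0. Of all genes with at least 400 UMIs, 41.5% lie below 0.

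Relative to the beta subunits, the alpha subunits of the core were higher in the section labelled trained. Summed over 7 genes, alpha subunits had 1256 and 1028 CPM and beta subunits 1458 and 1597 CPM, with log2 ratios of 0.29 (0.27 to 0.31) and −0.13 (−0.15 to −0.11). All 7 alpha genes had a ratio above 0 (median 0.10), though 4 to 7 did over the settings tried. Above 0 were also 2 of 7 beta genes (median −0.21), with 1 to 3 over those settings. Over all 11460 genes with at least 400 UMIs the median was 0.074, and 41.5% lay below 0. The alpha genes other than Psma2, Psma5 and Psma7 lay close to that median. For every 1 UMI of a beta gene there were 0.861 UMIs of alpha genes (0.850 to 0.874) in the first section and 0.644 (0.637 to 0.650) in the second, a ratio that does not depend on the scaling between libraries. It was higher under the label trained in 14 of 14 named regions, where it ran from 0.740 in hippocampal neuropil to 1.02 in habenula, against 0.584 in choroid plexus to 0.706 in the dentate granule layer. The ranges over regions did not overlap. The alpha sum was above 0 in 14 of 14 regions, with its interval above 0 in 12, and the beta sum was above 0 in 1 of 14, with its interval below 0 in 9. All regions of a section come from 1 mouse and 1 library, so neither the separate ranges nor these counts are a replicate check.

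**Figure D3:**
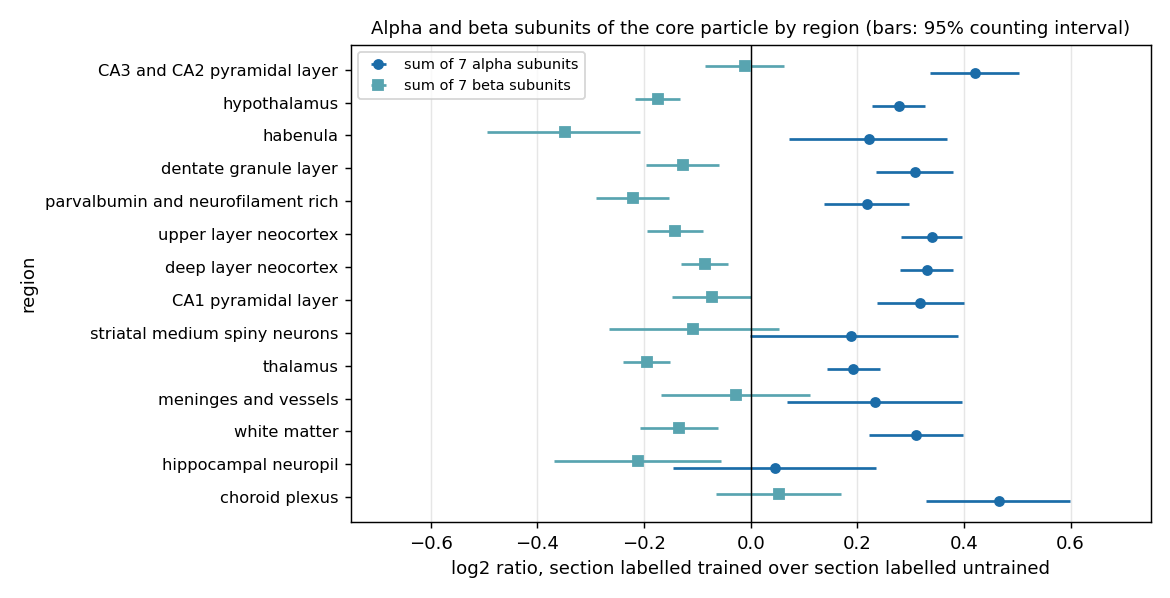
Log2 ratio of summed CPM, labelled trained over labelled untrained, for the 7 alpha and the 7 beta subunits in each of the 14 named regions, with bars for the 95% counting interval. Alpha sums run from 0.046 in hippocampal neuropil to 0.47 in choroid plexus, and beta sums run from −0.35 in habenula to 0.054 in choroid plexus.

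Transcript base composition moved with these ratios. Across 11455 genes the log2 ratio correlated with the GC content of the transcript at r = −0.34, and across 45 members at r = −0.26, over genes that share the same pair of libraries. The median GC content was 44.98% for alpha and 51.0% for beta subunits. After removal of the trend with GC content, an adjustment chosen after seeing the data, the medians were 0.056 for alpha, with 4 of 7 above 0, and −0.15 for beta, with 2 of 7 above 0. The difference between the medians, alpha minus beta, was 0.31 as measured and 0.21 after that removal, and it lay between 0.21 and 0.38 over all settings tried.

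Among alpha subunits, which hold the gate of the core, 3 genes had the largest ratios as measured. Psma2 had 285 CPM (279 to 292) and 203 CPM (200 to 207), a log2 ratio of 0.49 (0.45 to 0.53) that became 0.22 after GC trend removal. Psma7 had 239 and 166 CPM, a log2 ratio of 0.52 (0.48 to 0.57) that became 0.69 after GC trend removal. Psma5 had 131 CPM (127 to 135) and 87.2 CPM (84.8 to 89.6), a log2 ratio of 0.59 (0.53 to 0.65) that lay at the 1.5-fold limit itself. After GC trend removal it was 0.60. Psma5 (ENSMUSG00000068749, chr3:108256926-108279974, plus strand, build mm10 with GENCODE vM21) has 9 exons in its longest transcript. The remaining alpha genes lay close to the median of all genes, with log2 ratios from 0.035 for Psma1, with 122 and 119 CPM, to 0.10 for Psma6. Per kb of transcript, Psma6 was the highest alpha gene, with 176 and 164 CPM per kb, and Psma3 the lowest, with 55.7 and 53.1, though in undivided CPM, at 159 and 151, Psma3 was the median alpha gene. In undivided CPM Psma2 was the highest alpha gene in both sections, and the lowest were Psma1 in the section labelled trained and Psma5 in the section labelled untrained. The annotated span of Psma2 overlaps that of AW209491, a counted gene on the same strand with 724 and 1045 UMIs. Whether their exons overlap was not examined, so some reads there may not be assigned without doubt.

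Among beta subunits, Psmb1, a non-catalytic ring subunit, had the lowest ratio. It had 211 CPM (206 to 216) and 288 CPM (284 to 293), a log2 ratio of −0.45 (−0.49 to −0.41). Psmb2, another non-catalytic subunit, had 109 and 136 CPM with a log2 ratio of −0.31 (−0.37 to −0.25). The catalytic subunits had different ratios. Psmb5 had 268 CPM (262 to 274) and 271 CPM (267 to 275), a log2 ratio of −0.016 (−0.055 to 0.023) whose interval held 0. Psmb6, the caspase-like subunit, had 220 and 257 CPM, a log2 ratio of −0.22 (−0.27 to −0.18). Psmb7, the trypsin-like subunit, had 216 and 189 CPM, a log2 ratio of 0.19 (0.15 to 0.24). After GC trend removal Psmb7 took the other sign, at −0.033, while Psmb5 was at 0.14 and Psmb6 at −0.15. Psmb4, a non-catalytic subunit, had 271 and 268 CPM, a log2 ratio of 0.017 (−0.022 to 0.056). Per kb, Psmb7 was the lowest beta gene, with 75.6 and 66.2 CPM per kb, and Psmb5 the highest. In undivided CPM Psmb2 was the lowest in both sections, and the highest were Psmb4 in the section labelled trained and Psmb1 in the section labelled untrained. Pseudogenes named after Psmb5, Psmb6 and Psmb7 are in the annotation, so reads of these 3 genes may be shared with near-identical copies.

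The interferon-induced counterparts of the catalytic subunits differed widely in level. Psmb8 had 163 and 338 UMIs, or 5.52 CPM (4.71 to 6.44) and 5.73 CPM (5.13 to 6.37). This was 2.06% and 2.11% of the UMIs of Psmb5, or 0.971% (0.826 to 1.13%) and 0.996% (0.892 to 1.11%) per kb of transcript. Psmb9 was at 1.13% and 0.872% of the UMIs of Psmb6, or 0.377% (0.295 to 0.475%) and 0.292% (0.244 to 0.346%) per kb. Psmb10, which replaces Psmb7, had a much larger share. It had 109 CPM (105 to 113) and 94.1 CPM (91.6 to 96.6), which was 50.4% and 49.9% of the UMIs of Psmb7, and 110% (105 to 114%) and 108% (105 to 112%) per kb, so its place against Psmb7 depended on the scale. The intervals of the share per kb overlapped between the sections although the log2 ratio of Psmb10 itself was 0.21 (0.15 to 0.27), or 0.37 after GC trend removal. Psmb9 overlaps Tap1, a peptide transporter gene, on the other strand, which had 61 and 195 UMIs.

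Regulatory ATPases, the ring that unfolds substrates, summed to 779 and 785 CPM, a log2 ratio of −0.012 (−0.034 to 0.011) whose interval held 0, with 3 of 6 above 0 and 3 below. Per kb, Psmc5 was the highest ATPase, with 117 and 135 CPM per kb, and Psmc2 the lowest, with 36.3 and 32.0, from 126 and 111 undivided CPM. In undivided CPM the lowest were Psmc4, with 97.5, in the section labelled trained and Psmc6, with 90.9, in the section labelled untrained. The sum hid opposite differences in the 2 ATPases with the outermost ratios, which were picked after their values were seen. Psmc6 had 123 and 90.9 CPM, a log2 ratio of 0.44 (0.38 to 0.50), and Psmc3 had 127 and 157 CPM, a log2 ratio of −0.30 (−0.36 to −0.25). After GC trend removal Psmc6 was at 0.077 and Psmc3 at −0.17, and the median of the group, 0.020 as measured, was −0.014 with 2 of 6 above 0.

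Non-ATPase subunits, which form the base and lid of the regulatory particle, summed to 1068 and 966 CPM, a log2 ratio of 0.14 (0.12 to 0.16), but 6 of 11 genes lay below 0 and the median was −0.029. After GC trend removal that median was 0.079, with 7 of 11 above 0. Psmd1, a large scaffold subunit of the base, had the highest ratio of the 45 members with at least 400 UMIs. It had 3643 and 3380 UMIs, or 123 CPM (119 to 127) and 57.3 CPM (55.4 to 59.2), a log2 ratio of 1.11 (1.04 to 1.18). In the named regions it ran from 68.8 to 165 CPM in the section labelled trained and from 35.5 to 93.9 CPM in the section labelled untrained, with the log2 ratio above 0 in each of the 14, from 0.27 in the striatal region to 1.44 in choroid plexus. Psmd1 (ENSMUSG00000026229, chr1:86064387-86139151, plus strand, 25 exons) overlaps Htr2b on the other strand, which had 0 and 2 UMIs. The other members of the group lay on both sides of 0. Psmd7, a lid subunit, had 96.9 and 65.1 CPM, a log2 ratio of 0.57 (0.50 to 0.64) that became 0.60 after GC trend removal. Psmd2, the other large scaffold of the base, had 110 and 147 CPM, a log2 ratio of −0.42 (−0.47 to −0.36), opposite to Psmd1. Psmd11, a lid subunit, had 17.6 and 23.2 CPM, a log2 ratio of −0.40 (−0.55 to −0.26) that became 0.49 when each spot was given equal weight and −0.66 after GC trend removal. Psmd14, the deubiquitinase of the lid, had 147 and 105 CPM, a log2 ratio of 0.48 (0.42 to 0.54). Per kb, Psmd11 was the lowest of the group, with 5.90 and 7.80 CPM per kb. The highest were Psmd14 in the section labelled trained, with 95.2, and Psmd8, another lid subunit, in the section labelled untrained, with 70.3. In undivided CPM Psmd8 had 132 and 139, and Psmd2 was the highest in the section labelled untrained.

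Among activators, Psme1 and Psme2 encode the partner subunits of the interferon-induced cap, and they lay on opposite sides of 0. Psme1 had 1400 and 4421 UMIs, or 47.4 CPM (44.98 to 49.98) and 74.9 CPM (72.7 to 77.1), a log2 ratio of −0.66 (−0.75 to −0.57). Psme2 had 1614 and 2326 UMIs, or 54.7 CPM (52.1 to 57.4) and 39.4 CPM (37.8 to 41.0), a log2 ratio of 0.47 (0.38 to 0.57). The log2 ratio of Psme1 over Psme2 in UMIs was therefore −0.21 in the first section and 0.93 in the second, and per kb −1.25 and −0.12. The values per kb rest on a longest Psme1 transcript with 3 exons. The genes are neighbours on chromosome 14, Psme1 at chr14:55578123-55581529 on the plus strand and Psme2 at chr14:55587441-55591113 on the minus strand, both in mm10. Psme1 overlaps Emc9 on the other strand, which had 1690 and 3156 UMIs. Psme3, the nuclear activator, had 56.3 and 51.3 CPM, a log2 ratio of 0.14 (0.048 to 0.22). Psme4, a large single-chain activator, had 16.9 and 16.4 CPM, a log2 ratio of 0.048 (−0.11 to 0.20), with 0.56 (0.19 to 0.91) in the hippocampus from 104 and 179 UMIs, which is below the minimum of 400 UMIs there. Per kb, Psme2 was the highest activator, with 56.8 and 41.0 CPM per kb, and Psme4 the lowest, with 2.61 and 2.53. In undivided CPM the highest were Psme3 in the section labelled trained and Psme1 in the section labelled untrained.

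Assembly factors and the inhibitor summed to 250 and 244 CPM, a log2 ratio of 0.034 (−0.0067 to 0.075), with 4 of 8 above 0 and 4 below. Psmg4, a chaperone of core assembly, was the highest per kb, with 91.2 and 92.2 CPM per kb. The lowest were Psmf1, the inhibitor, in the section labelled trained, with 7.63, and Psmd5 in the section labelled untrained, with 8.38, while in undivided CPM Psmg1 was the lowest, with 14.7 and 11.3. In CPM, Psmf1 had 29.1 and 33.9, a log2 ratio of −0.22 (−0.34 to −0.11).

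Some differences between the sections had the same sign in all 14 named regions. Of 45 members, 5 were higher under the label trained in each region, Psmd1, Psma2, Psma5, Psmd7 and Psmc6 (6.81% of all genes), and 4 were lower in each, Psme1, Psmb1, Psmd2 and Psmc3 (3.54% of all genes). The log2 ratios ran from 0.27 to 0.65 for Psma2, from 0.11 to 0.98 for Psma5 and from 0.13 to 0.98 for Psmd7. On the lower side they ran from −0.88 in meninges to −0.40 in CA1 for Psme1, from −0.82 to −0.20 for Psmb1 and from −0.58 to −0.029 for Psmd2. The regions of 1 section share a mouse and a library, so these counts are not replicates.

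Regional level followed a similar order in both sections. Summed over all members, the CA3 and CA2 pyramidal layer was highest, with 5960 CPM (5815 to 6107) and 5367 CPM (5289 to 5446). The dentate granule layer reached 5521 CPM (5405 to 5639) and 5156 CPM, the CA1 layer 5202 and 4879 CPM, and white matter 4814 and 4652 CPM. Choroid plexus, with 4156 CPM and 3722 CPM (3662 to 3783), and hippocampal neuropil, with 3917 CPM (3742 to 4098) and 4135 CPM, were lowest. The 7 choroid plexus markers took 18.4% and 22.2% of the UMIs of choroid plexus. With those markers left out of the totals, a setting chosen after seeing the data, the members had 5090 and 4785 CPM in choroid plexus, above white matter at 4829 and 4684 CPM, and hippocampal neuropil alone was lowest in both sections. The interval of the CA3 and CA2 layer lay above that of every other named region in the section labelled trained, while in the section labelled untrained it overlapped those of hypothalamus (5186 to 5291) and habenula (5080 to 5312). The highest region had 1.52 and 1.44 times the level of the lowest, and the correlation between the sections over 14 regions was r = 0.88. Neuropil spots were shallow, with medians of 1955 and 3090.5 UMIs. Within regions, the shallower spots had a summed level lower than the deeper spots by log2 ratios of −0.091 and −0.053, and the part of depth in the order of regions was not tested.

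**Figure D4:**
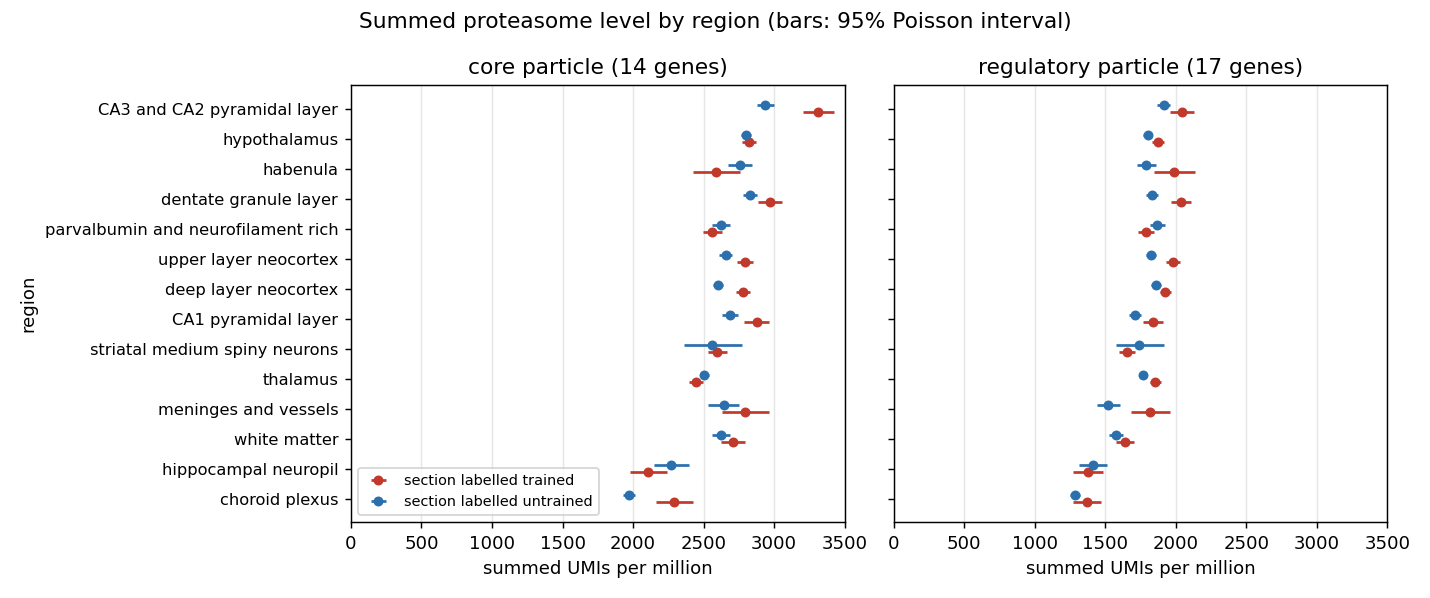
Summed level of the core particle (14 genes) and of the regulatory particle (17 genes) in CPM in each named region, with 1 point per section and bars for the 95% Poisson interval. The CA3 and CA2 pyramidal layer has the highest core level in the section labelled trained, 3311 CPM, and core sums exceed regulatory sums in every region.

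The 3 hippocampal cell layers together were compared with all other spots within each section, which keeps mouse and library the same. The summed level was higher in the layers by log2 ratios of 0.14 and 0.083, though with equal weight for each spot the second became −0.0023. Of 45 members, 27 were above 0 in both sections (43.6% of all genes), 9 were below in both (41.2% of all genes) and 9 differed in sign, and intervals lay above 0 in both sections for 14 members (23.4% of all genes) and below for 4 (24.3% of all genes). The medians were 0.11 and 0.080, beside 0.019 and 0.0078 over all genes. Alpha subunits were above 0 for 7 of 7 genes in both sections, with medians of 0.28 and 0.18, and activators for 1 of 4. Past 1.5-fold in both sections, 0 of 45 members were higher in the layers (7.79% of all genes) and 1 of 45 was lower (13.5% of all genes), namely Psmb8 at −0.69 (−1.64 to 0.061) and −0.76 (−1.30 to −0.29), the first with an interval that held 0.

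Some single subunits were highest in the same named region in both sections. Psmb5 was highest in the CA3 and CA2 layer, with 446 CPM (407 to 488) and 379 CPM (359 to 401). The next regions were CA1 in the first section, with 341 CPM (311 to 373), and meninges in the second, with 293 CPM (257 to 331), so the CA3 and CA2 interval was clear of every other named region in both sections. Psmc5 was highest in the region rich in parvalbumin and neurofilament, with 218 CPM (199 to 238) and 288 CPM (268 to 310). This rested on the larger of the region's 2 clusters, with 236 CPM (210 to 265) and 310 CPM (286 to 335), since the smaller had 193 CPM (165 to 223) and 201 CPM (164 to 245), against 189 and 219 CPM in thalamus. The larger cluster was led by Spp1, Syt2 and Pvalb but also by Tmem125 and Ppp1r14a, genes of oligodendrocytes, and in the alternative clustering a cluster with these leading genes scored nearest to white matter and was left unnamed. White matter markers summed to 12851 and 14434 CPM in the region, against 46481 and 38418 CPM in white matter, and their part in the level of Psmc5 was not tested. Psmd14 was highest in the dentate granule layer, with 207 CPM (185 to 231) and 133 CPM (122 to 145). Psma4 was highest in CA1, with 189 and 164 CPM. These regions were read off after the values were seen.

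White matter was compared with all other spots in the same way. The summed level was lower by log2 ratios of −0.089 and −0.079, and the median over members was −0.13 and −0.13, beside −0.21 and −0.23 over all genes. Of 45 members, 12 were above 0 in both sections (28.8% of all genes), 27 were below in both (55.1% of all genes) and 6 differed in sign, with intervals above 0 in both sections for 5 (13.9% of all genes) and below for 10 (28.9% of all genes). Past 1.5-fold in both sections, 1 of 45 members was higher in white matter (10% of all genes), Psmb8 at 1.02 (0.14 to 1.73) and 0.91 (0.25 to 1.47), from 16 and 26 UMIs there. Microglial markers summed to 779 and 734 CPM in white matter against 378 and 357 CPM over the whole sections, and their part in the level of Psmb8 was not tested. On the lower side were 2 of 45 members (22.1% of all genes), Psmb10 at −1.33 (−1.70 to −0.99) and −0.62 (−0.87 to −0.40), and Psmd5, an assembly chaperone of the regulatory particle, at −0.89 (−1.49 to −0.39) and −0.78 (−1.21 to −0.41). Psmb8 and Psmb10, both induced by interferon, thus lay on opposite sides in white matter. Psmd9, another assembly chaperone, was highest in white matter in both sections, at 0.45 and 0.48 over the other spots.

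**Figure D5:**
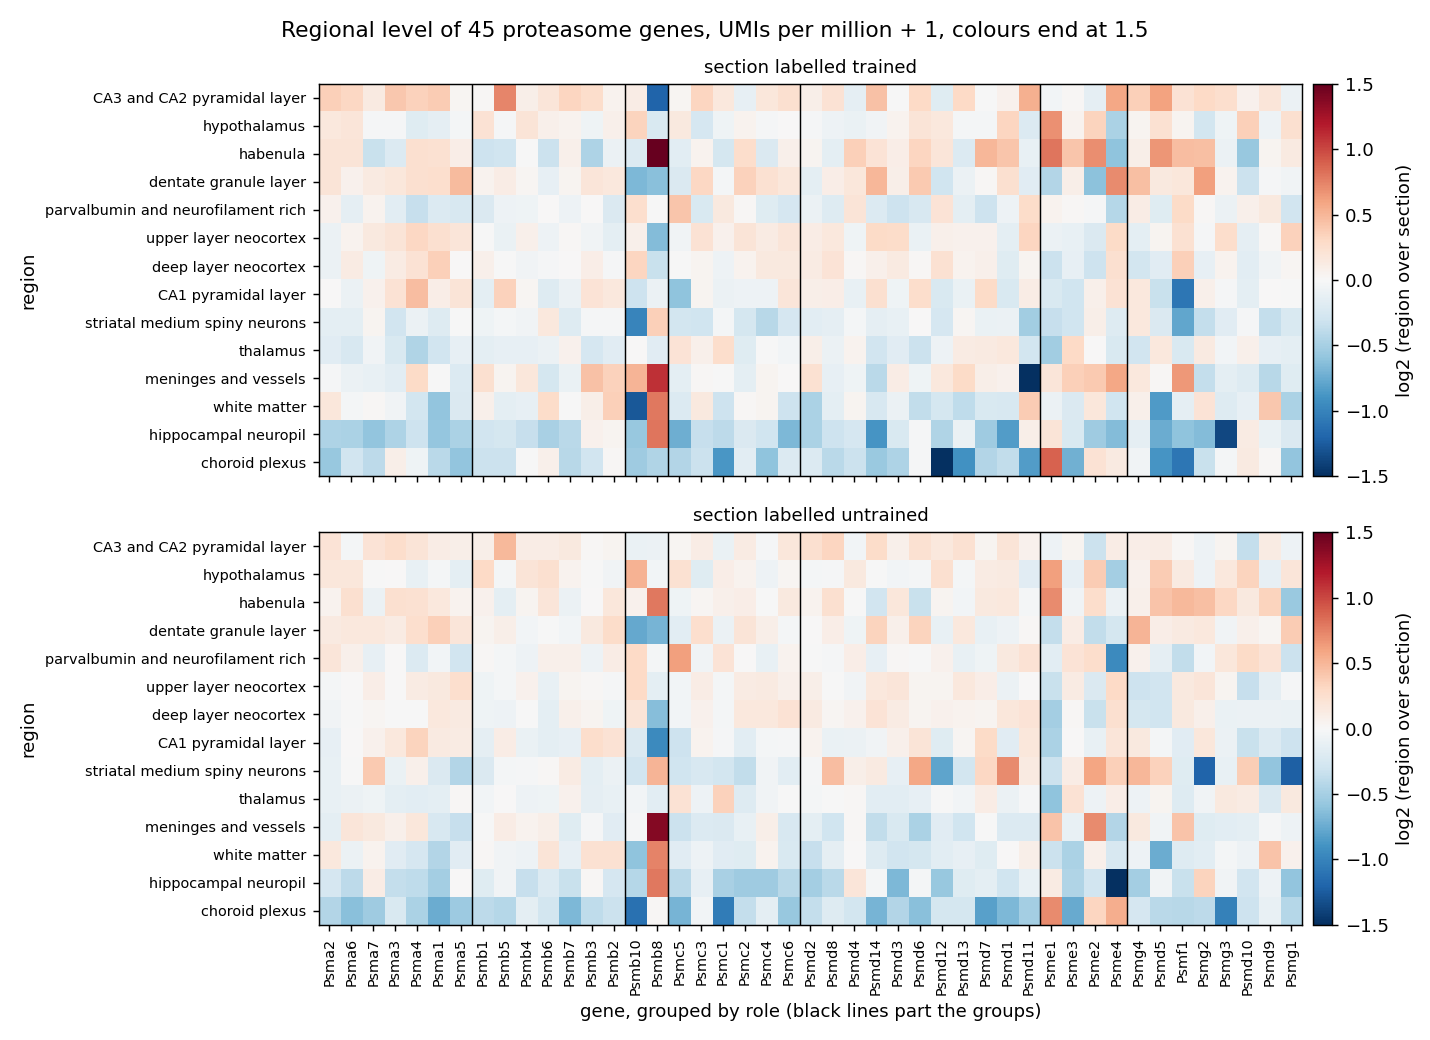
Log2 of the level of each of 45 members in each named region over its level in the whole section, with 1 CPM added to both, red for higher and blue for lower, separately for the 2 sections. Psmb8 varies most between regions in both sections (SD of 0.88 and 0.79 over log2 levels), and Psmb5 stands out in the CA3 and CA2 layer with 446 and 379 CPM.

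The spread of a member over the 14 regions, as the SD of its log2 level, had a median of 0.26 and 0.25. Ranked by the lower of the 2 values, it was widest for Psmb8 (0.88 and 0.79), Psme4 (0.47 and 0.66) and Psme1 (0.47 and 0.48), the first 2 of which rested on few UMIs in some regions. In the first section alone Psmf1 (0.58), Psmb10 (0.54), Psmd11 (0.54) and Psmd5 (0.48) were wider than Psme4 and Psme1. Ranked by the higher of the 2 values, it was narrowest for Psmb4 (0.14 and 0.13), Psmd4, a ubiquitin receptor (0.18 and 0.12), and Psmb2 (0.18 and 0.18), although 7 members other than these 3 were narrower than Psmb2 in the second section. Psmb4 ran from 213 CPM (173 to 258) in neuropil to 310 CPM (294 to 327) in hypothalamus in the first section, and from 210 CPM (174 to 252) to 306 CPM (294 to 319) between the same regions in the second.

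Psme1 kept its regional pattern although its level differed between the sections. It was highest in choroid plexus, with 88.2 and 123 CPM, habenula, with 83.6 and 123 CPM, and hypothalamus, with 76.8 and 115 CPM. It was lowest in thalamus, with 32.8 and 49.1 CPM, and the correlation between the sections over 14 regions was r = 0.95. Psme2 ran from 35.5 to 89.0 CPM and from 30.2 to 64.9 CPM. Psmb10 had 138 and 135 CPM in hypothalamus, above its whole-section level in both sections. In meninges it had 155 and 93.2 CPM, above that level in the first section only. It was lower in the dentate granule layer, with 67.7 and 54.6 CPM, in white matter, with 44.5 and 61.8 CPM, and in choroid plexus, with 75.1 and 42.8 CPM. Relative to the UMIs of Psmb7, Psmb10 ran from 20.7% in white matter to 76.9% in meninges in the first section, and from 29.7% in the dentate granule layer to 69.1% in hypothalamus in the second. In UMIs it thus stayed below Psmb7 in every named region, while per kb the same ends were 44.9% and 167%, and 64.5% and 150%. Psmb8 was highest in habenula in the first section, with 18.9 CPM from 7 UMIs, and in meninges in the second, with 16.5 CPM from 14 UMIs, counts too low to order the regions.

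As a measure of spatial structure the deposited tables give Moran's I, which is near 0 for a gene scattered at random over the spots and rises with patterning. Its median over members was 0.046 and 0.059, and it ranged from −0.0042 to 0.085 and from 0.0042 to 0.13. Among all genes of those tables the median member stood at percentile 82.5 and 80.0, genes that include many with few counts. The median member was detected in 46.1% and 65.6% of spots, shares that move with depth.

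Other genes of the ubiquitin and proteasome pathway were taken from a list of 28, of which 27 were found and all 27 had at least 400 UMIs. Of these, 20 lay above 0 and 7 below, with a median of 0.13, beside 0.074 over all genes, of which 41.5% lay below 0. Past 1.5-fold, 3 were higher (8.06% of all genes) and 2 lower (4.75% of all genes). The highest were Sem1, a small lid subunit outside the Psm names (358 and 207 CPM, log2 ratio 0.79), Uchl5, a deubiquitinase of the regulatory particle (0.64), and Ngly1, which processes Nfe2l1 (0.61). On the lower side, Nploc4, a cofactor of the segregase Vcp, had a log2 ratio of −0.78. Of 8 genes of MHC class I and interferon response, which share the induction of Psmb8, Psmb9, Psmb10, Psme1 and Psme2, 6 had at least 400 UMIs, with 3 above 0, 3 below and a median of 0.029, and 0 were past 1.5-fold in either direction.

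Tissue markers moved between the sections beside these values. All 7 choroid plexus markers were past 1.5-fold lower under the label trained, as were 6 of 7 meningeal markers, which summed to 144 and 279 CPM. On the higher side were 7 of 8 striatal markers, 4 of 6 markers of the region rich in parvalbumin and neurofilament, which summed to 1305 and 734 CPM, and 3 of 9 hypothalamic markers. The hypothalamic markers were mixed, with 4 of 9 below 0 and Pmch past 1.5-fold lower, and their sum of 1374 and 852 CPM rested on Oxt, with 663 and 63.1 CPM, since without Oxt it was 711 and 789 CPM. Neuronal markers summed to 4904 and 3925 CPM, astrocytic markers to 2295 and 2269 CPM and microglial markers to 378 and 357 CPM. Without the choroid plexus spots, a setting chosen after seeing the data, the summed ratio of all members was 0.038 and 1 member, Psmd1, stayed past 1.5-fold higher, with Psma5 at 0.56. The part of the other markers was not tested. Of the 48 members, 14 overlap a counted gene on the other strand and 2 overlap one on the same strand.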

How the data were processed

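UMI counts per gene and spot were deposited by the authors, 1 matrix per section, made per the study's methods by trimming reads with TrimGalore and counting with Space Ranger 2.0.0 on mm10 (GENCODE vM21 names and coordinates), for spots under tissue. The deposited spatial enrichment tables, also from Space Ranger, hold Moran's I, a score per gene, and UMI counts per gene. The authors' normalized values were not used here. Groups were taken from the sample labels, with 1 section per group.

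UMIs were summed over spots and divided by the section's or region's total, times 1000000 (CPM). Log2 ratios used a pseudocount of 0.5 UMI, and genes with at least 400 UMIs over both sections entered counts. A gene was called past a fold of 1.5. Intervals are exact at 95% (Poisson for CPM, conditional binomial for ratios) and cover counting error only. No p-value was computed. Hippocampal regions were the 3 cell layers and the neuropil. Spots with at least 500 UMIs were clustered with scanpy 1.11.5 and leidenalg 0.10.2 (3000 variable genes per section, 946 in both and used, 30 principal components, 15 neighbours, resolution 1.5, seed 7), and 20 of 24 clusters were named by markers. This left 194 and 114 spots out of regions but not out of whole-section sums. Python 3.11.15, numpy 2.4.6, scipy 1.17.1 and pandas 2.3.3 were used, and the ratio code was tested on simulated data. Correlations over regions are descriptions, since regions share a library. Promoter windows came from RefSeq tables of GRCm38.p6, where 40 of 48 members were matched.

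Members, roles and lists were chosen with earlier results of these data known. Genes given by name were the highest and lowest level of each role (per kb), the 5 highest and 5 lowest ratios, the catalytic subunits and their counterparts, the activators, the 3 widest and 3 narrowest over regions, and members under 400 UMIs. Psma1, Psma4, Psmc3, Psmc4, Psmc6, Psmd5, Psmd9 and Psmg1 were added after their values were seen. Alternatives covered scaling, pseudocount, UMI minimum, fold, weight and depth of spots, side, clustering and transcript length. GC trend removal and leaving out choroid plexus, its markers, Oxt or a cluster were chosen after seeing the data. Some genes of the pathway list are not reported here by name.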

Additional observations from a re-analysis of the deposited data

How the results depend on the processing

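The summed log2 ratio between the sections (0.058) was −0.0067 without mitochondrially encoded genes in the total and −0.016 with median-of-ratios size factors, and it became 0.0018 with each spot weighted equally, 0.071 over spots with at least 3000 UMIs and 0.038 without choroid plexus. The median over members (0.035) became −0.029 and −0.038 under those 2 scalings, which move all log2 ratios by −0.064 and by a size of 0.074. The number of members past 1.5-fold higher (2) became 1 without mitochondrially encoded genes (6.06% of all genes), 1 with median-of-ratios size factors (5.84%), 1 as a mean over clusters (7.08%), 1 without choroid plexus (7.53%) and 4 after GC trend removal (6.84%). At the lower fold tried it became 10 (23.9% of all genes), and the number lower (1) became 4 (13.4% of all genes). After GC trend removal the 1 gene past 1.5-fold lower was Psmd11 and not Psme1 (3.54% of all genes).

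In the hippocampus the summed ratio (0.074) was −0.00057 without mitochondrially encoded genes, −0.038 with equal weights, 0.0082 with median-of-ratios size factors, 0.12 over deeper spots and 0.026 on the left side. The log2 ratio of core over regulatory particle (0.56 and 0.58) became 0.51 and 0.62 with equal weights and 1.06 and 1.12 per kb. White matter over other spots (−0.089 and −0.079) became −0.13 and −0.11 without mitochondrially encoded genes, −0.045 with equal weights in the section labelled trained and −0.051 on the left side in the section labelled untrained. Hippocampal layers over other spots (0.14 and 0.083) became 0.092 without mitochondrially encoded genes and 0.058 with equal weights in the section labelled trained, and −0.0023 with equal weights in the other.

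Among single members, 10 values with a measured interval clear of 0 took the other sign. Another 114 moved out of their interval and 326 stayed within it. With equal weights Psma3 became −0.31, Psma4 −0.054, Psmd11 0.49 and Psmg2 −0.015. After GC trend removal Psma3 became −0.15, Psma4 −0.018, Psmb7 −0.033, Psmc2 −0.027 and Psmd8 0.0094, and with median-of-ratios size factors Psma3 became −0.0034. Not among the 10 were changes of sign in members whose measured interval held 0. After GC trend removal these included Psma1 (−0.088), Psmb5 (0.14), Psmb8 (0.039), Psmd13 (0.079), Psme4 (−0.078) and Psmg4 (0.12). The causes were not tested. No paired analysis was possible because the groups share only replicate number 1 and come from different mice. With 1 section per group, no replicate could be left out. Depth limits Psma8, Psmb8, Psmb9 and Psmb11, whose regional counts are too low to be ordered.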
